A study of Mus musculus and Homo sapiens with 56 samples.

Results

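The cytosolic ribosomal protein genes were taken as every row of the RNA-seq count table whose mouse symbol is Rpl or Rps followed by a number with an optional a, l or x, together with Rplp0, Rplp1, Rplp2 and Rpsa. Rows marked as pseudogenes were left out. The rule found 82 genes among 52459 rows, 32 named for the small (40S) subunit and 50 for the large (60S) subunit, and each of the 82 passed the filter on low counts that left 17778 genes for testing. The symbols admit 6 paralogs (Rpl3l, Rpl6l, Rpl10l, Rpl39l, Rps4l and Rps27l) and leave out Fau, Rack1 and 5 other genes, which were counted apart.

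The series compared E14TG2a mouse embryonic stem cells carrying the D395A substitution, which is labelled as a cell line of its own and lies in the catalytic site of the m6A methyltransferase METTL3, with wild-type (WT) E14TG2a cells. Both were untreated and were grown on gelatin in N2B27 medium with LIF, the MEK inhibitor PD0325901 and the GSK3β inhibitor CHIR99021. The labels do not say whether the D395A line is 1 clone. Ribosomal-RNA-depleted RNA was sequenced in 2 D395A and 2 WT libraries, and anti-m6A immunoprecipitation of chromatin-associated RNA gave 1 peak list for D395A (1 immunoprecipitate and 1 input) and 1 for WT (2 of each).

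A ribosome is built in the nucleolus from ribosomal RNA and one copy of most ribosomal proteins, so their genes are kept at high and similar levels in growing cells. The transcripts are short and abundant, and in mammals they belong to the TOP messages, which begin with a C followed by a run of pyrimidines and whose translation is set by mTOR through LARP1. METTL3 is the catalytic subunit of the complex that writes N6-methyladenosine (m6A) on RNA; the mark is typically found in long internal exons and near stop codons, and short, stable housekeeping messages are known to carry little of it.

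RefSeq start sites (GRCm38.p6) were available for 60 of the 82 genes, in 72 windows. A run of at least 5 pyrimidines covering the annotated first base was present in 27.8% of the windows, against 10.1% of 32851 windows of all genes. The first base was C in 27.8%, against 16.3%. Sequences are shown for 2 genes whose start lies under a WT m6A peak (Rpl7a and Rpl28), for the stalk gene Rplp2, and for Rps27 with its paralog Rps27l, to let the start with and without the run be read side by side. Each runs from 40 bases before to 20 bases from the annotated start on, and capitals mark the pyrimidine run that holds the first base.

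Rpl7a: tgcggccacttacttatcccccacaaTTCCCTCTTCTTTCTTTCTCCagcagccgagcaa
Rpl28: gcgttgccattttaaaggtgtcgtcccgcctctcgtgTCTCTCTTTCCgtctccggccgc
Rplp2: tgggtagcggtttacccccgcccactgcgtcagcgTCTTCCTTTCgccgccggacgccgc
Rps27: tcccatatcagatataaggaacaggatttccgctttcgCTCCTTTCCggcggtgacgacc
Rps27l: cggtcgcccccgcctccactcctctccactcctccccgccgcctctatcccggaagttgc

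These windows are chr2:26910767-26910826 (plus strand), chr7:4792925-4792984 (plus), chr7:141447611-141447670 (plus), chr3:90213629-90213688 (minus) and chr9:66946046-66946105 (plus). The start of Rps27l had no such run in either of its RefSeq windows, nor did the windows of the retrocopies Rpl10l and Rpl39l. In the 50 bases on either side of the start, read on the gene's strand, CTTTCC was found in 30.6% of the members' windows and in 4.69% of all windows. CTCTTTC, which overlaps it wherever the next base is C, was found there in 19.4% against 1.37%. CCGGAAG, the core bound by ETS factors, was found on either strand of the whole window of 300 bases in 36.1% against 8.86%. These are counts of letters and not sites of binding.

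In the D395A peak list, 122 of 38823 peaks overlapped the body of a ribosomal protein gene by at least 1 base, and they fell in 67 of the 82 genes (81.7%, against 52.6% of all 17778 tested genes). In the WT list, 9 of 48445 peaks did so, in 9 of the 82 genes (11.0%, against 66.5% of all tested genes). Peaks in the D395A list and not in the WT list were present in 59 members (72.0%, against 12.3%), in both lists in 8 (9.76%, against 40.3%), in the WT list alone in 1, Rpl10l (1.22%, against 26.2%), and in neither list in 14 (17.1%, against 21.2%). Among the 14 were Rpl24, Rpl27, Rpl29, Rpl35a, Rpl37a, Rpl39l, Rpl3l, Rpl6, Rpl6l, Rps13, Rps16, Rps19 and Rps4x. Counting exonic overlap alone, 66 members had a D395A peak (80.5%, against 37.2%) and 7 a WT peak (8.54%, against 61.0%). The order of the lists was thus the opposite for these genes and for the tested genes as a whole. Each genotype has 1 list, so no test of a difference between genotypes is possible, and the depth of the immunoprecipitates is not given by the files.

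The lists were not called alike. The WT list ends at a q-value of 0.05 and the D395A list at an unadjusted p-value of 0.05, and only 5275 peaks (13.6%) of the D395A list reached a q-value of 0.05. With both lists held to that q-value, 57 members kept a D395A peak (against 17.3% of all tested genes) and 9 a WT peak (66.5%). At a q-value of 0.01 the members numbered 53 (12.5% of all tested genes) and 9. A further count, chosen after the values were seen, kept the 5275 top-ranked peaks of each list and left 57 members with a D395A peak (against 17.3% of all tested genes) and 1, Rps28, with a WT peak (against 22.7%). At a fold enrichment of at least 3, also chosen after the values were seen, 32 members had a D395A peak (39.0%, against 26.8%) and 4 a WT peak (4.88%, against 64.0%).

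The share of genes with a D395A peak also moved with RNA level. Among genes that averaged 300 CPM (counts scaled to library size) or more over the 4 RNA-seq libraries, a D395A peak at a q-value of 0.05 lay in 41 of 51 members (80.4%) and in 73.0% of 489 other genes. At the same level a WT peak lay in 6 of the 51 members (11.8%) and in 67.3% of the 489. Between 100 and 300 CPM the D395A peaks covered 14 of 23 members (60.9%) and 42.3% of 2264 other genes, while the WT peaks covered 2 members (8.70%) and 77.8% of the others. At the lists' own thresholds the D395A shares were 92.2% of members and 93.3% of other genes in the higher band, and 78.3% and 83.0% in the lower, so members stood above other genes of their level at a q-value of 0.05 and below them at the deposited threshold. In both bands and at both thresholds the WT share of members was below that of other genes. Restricted to gene bodies of at most 6 kb, 57 other genes at 300 CPM or more had D395A peaks at that q-value in 75.4% and WT peaks in 29.8%. These bands were set after the values were seen, and the shares were not tested.

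**Figure D1:**
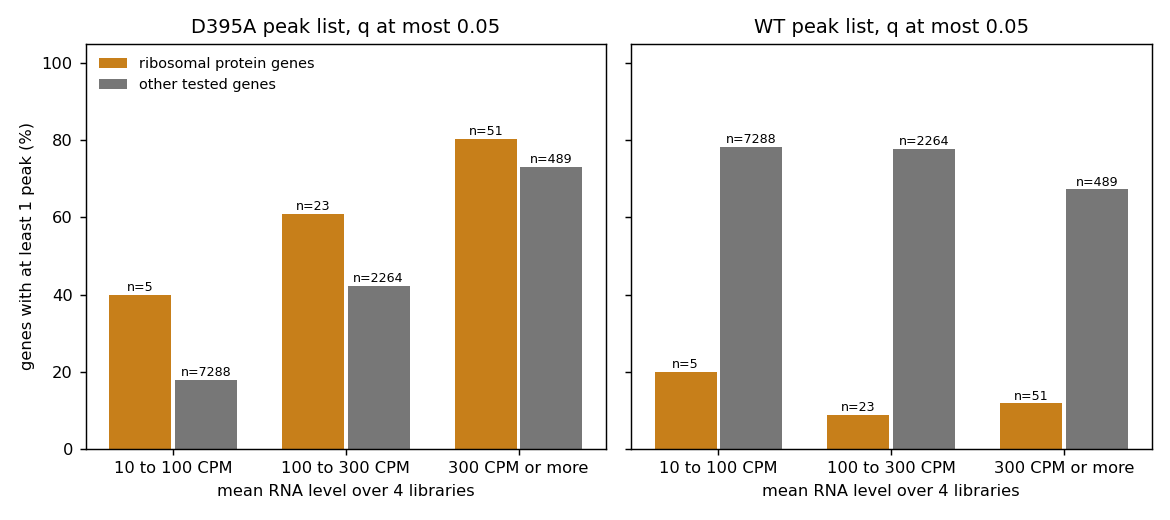
Share of genes with at least 1 m6A peak at a q-value of at most 0.05, in the D395A list (left) and the WT list (right), for ribosomal protein genes (orange) and other tested genes (grey) in 3 bands of mean RNA level; n is the number of genes in each bar. In the highest band the orange bars stand at 80.4% for D395A and 11.8% for WT, and the grey bars at 73.0% and 67.3%.

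The members' D395A peaks ranked high in a list that is mostly weak. Of the 122, 84 (68.9%) reached a q-value of 0.05, against 13.6% of the list, and 76 were among its top 10% by p. Their median −log10 p was 6.63 against 2.87 for the list. Their fold enrichment over input did not stand out in the same way, with a median of 2.59 (range 1.44 to 6.03) against 2.66 for the list. The peaks touched exons in 118 of 122, with the summit in an exon in 81, and 64.3% of the bases they covered inside the members were exonic, against 50.3% of the members' bodies. Overlapping exons listed for a gene were merged into blocks, so a block can be longer than an exon of any 1 message. By position, 50 touched the last exon block of the gene, 24 the first (4 of them both), 48 internal exon blocks alone and 4 an intron alone. Single peaks were found in 29 genes, pairs in 26 and 3 or more in 12, up to 5 in Rps15a and Rps24. A small nucleolar RNA row, of the kind many of these genes host in introns, lay under 15 of the 122.

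Among the 122 member peaks of the D395A list the highest fold enrichment was 6.03, at a peak touching an internal exon block of Rpl26 (chr11:68904111-68904443), a protein at the rim of the exit tunnel. Rplp2 and Rplp0, which form the stalk that recruits elongation factors, followed with 5.83 (chr7:141450810-141451244) and 5.61 (chr5:115563082-115563401), both touching the last exon block. Rps24 had 5.02 inside its last exon block (chr14:24493126-24493440), with the summit at 62.3% of the gene body and so not near its end. Rpl39, a small tunnel protein, had 4.84 at its last exon block (chrX:37082642-37082984), where the row for Snora69 also lies. Rpl41, which encodes the smallest ribosomal protein, had 4.74 over most of its gene (chr10:128548228-128549000). The summits at Rplp2, Rps24 and Rpl41 lay in exons and those at Rpl26, Rplp0 and Rpl39 outside them. None of these 6 genes had a WT peak. The coordinates are those of the deposited mm10 lists.

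By fold enrichment the 9 WT peaks stood below their own list, with a median of 2.91 against 6.31. By p they did not, with a median −log10 p of 22.8 against 19.8 for the list. The strongest, at Rps28 (6.18; chr17:33816971-33819759), reached only the edge of the gene: its summit lay past the annotated end of Rps28 and it also covered exons of Kank3. The Rpl3 peak (2.43) had its summit 221 bases before the start of Rpl3, in Syngr1. Those at Rps15a (4.29) and Rpl18 (2.09) were intronic. The peak at Rpl23a (2.91) covered the row of Snord42b, and that at Rpl7a (2.32; chr2:26910319-26911431) reached into its neighbour Med22. The peak at the retrocopy Rps4l (2.48) lay inside the gene Tmtc1 as well. The remaining peaks, at the first exon block of Rpl28 (3.71; chr7:4792955-4793469) and over the single exon block of Rpl10l (3.44; chr12:66282936-66284399), had no other gene beneath them. The start sites of Rpl7a and Rpl28 printed above lay inside these peaks. The summit fell in a member's exon in 3 of the 9 (Rpl28, Rpl10l and Rps4l), and 4 of the 9 overlapped a D395A peak of the same gene (Rpl23a, Rpl7a, Rps4l and Rpl28).

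**Figure D2:**
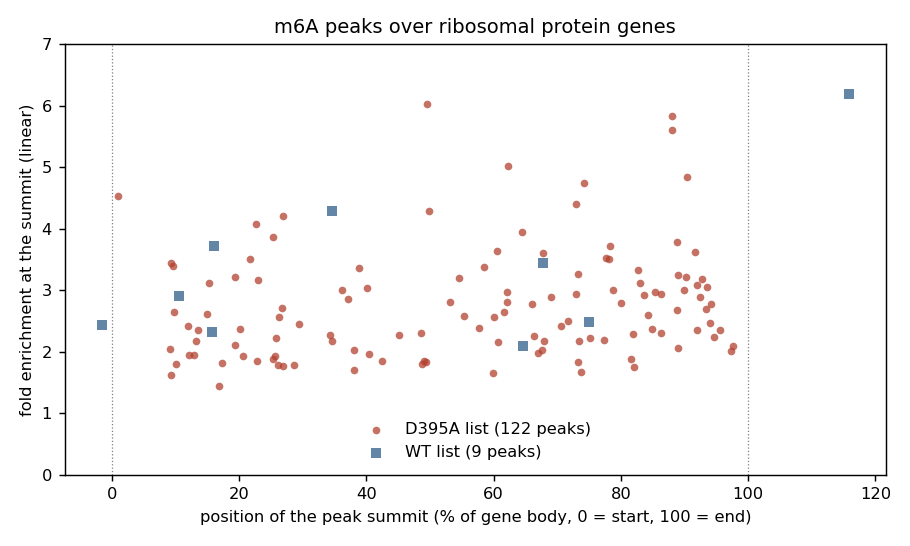
Fold enrichment of each m6A peak that overlaps a ribosomal protein gene (linear scale) against the position of its summit along the gene, from start (0%) to annotated end (100%). The 122 peaks of the D395A list (red circles) spread along the bodies between 1.44 and 6.03, and the highest of the 9 WT peaks (blue squares), 6.18 at Rps28, lies beyond the end of its gene; folds of the 2 lists come from different immunoprecipitates and inputs and are not on a common scale.

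The RNA-seq libraries held 12743677 and 18151353 counts for D395A and 13953069 and 19246342 for WT. Of 8 embryonic stem cell markers, all were detected, with summed levels of 2002 and 1926 CPM in D395A against 3767 and 3648 CPM in WT. The fibroblast list (6 of 8 tested) summed to 15.9 CPM in each D395A library against 28.2 and 28.3 CPM in WT. The endoderm list (4 of 6 tested, 2 at 0 in every library) summed to 31.9 and 33.3 CPM in D395A against 11.4 and 10.5 CPM in WT. Its members moved apart: Foxa2 had 26.9 and 28.8 CPM in D395A against 0.374 and 0.161 CPM in WT, Gata4 had 1.45 and 1.86 CPM in D395A against 8.14 and 7.99 CPM in WT, and Sox17 and Gata6 did not pass. In the fibroblast list Dcn had 2.13 and 1.65 CPM in D395A and was at 0 in both WT libraries. The part of these shifts in the values below was not tested. Mettl3 had 30.6 and 33.9 CPM in the D395A libraries, against 36.2 and 35.5 CPM in the WT libraries (log2 fold change -0.15 ± 0.08 (SE), adjusted p = 0.114); a substitution leaves the transcript countable, so its level is no check of the labels. The labels do not say whether replicates are separate cultures, so the p-values measure only the spread between these libraries.

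Most ribosomal protein genes did not pass the test for a difference in RNA between D395A and WT cells, and those that did changed by less than 2-fold with 1 exception. Of the 82 genes, 3 rose in D395A (3.66%, against 36.8% of all 17778 tested genes), 24 fell (29.3%, against 34.3%) and 55 did not pass (edgeR quasi-likelihood test, Benjamini-Hochberg adjusted p below 0.05 over all tested genes). Together 32.9% were called, against 71.1% of all tested genes. With a change of at least 2-fold also required, 1 member remained, Rpl3l (1.22%, against 31.8%). Log2 fold changes had a median of -0.12 among members and 0.00 among all tested genes, with the members' quartiles at -0.26 and -0.02 and those of all tested genes at -0.50 and 0.73. At 300 CPM or more, 1 of 51 members rose and 11 fell (21.6%, median -0.10), against 15.1% and 58.9% of 489 other genes (median -0.25). From 100 to 300 CPM, 1 of 23 rose and 8 fell (34.8%, -0.17), against 26.7% and 49.0% of 2264 others (-0.14). At 100 CPM or more with bodies up to 6 kb, 2 of 67 rose and 17 fell (25.4%, -0.12), against 36.9% and 28.4% of 222 others (0.06). These bands were set after the values were seen and were not tested. In bulk RNA a lower level per cell and fewer cells that express a gene cannot be told apart. Of the 32 genes of the 40S subunit 2 rose and 9 fell (median -0.08), and of the 50 of the 60S subunit 1 rose and 15 fell (median -0.15). Scaled by library totals alone, which puts the median of all tested genes at 0.10, 4 members rose and 13 fell. That was 20.7% called, against 70.0% of all tested genes. Without the filter on low counts, 42.7% of members were called, against 44.6% of 31364 genes.

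The number of falls moved with the D395A library. Members took 3.11% and 2.52% of all counts in the D395A libraries, against 2.88% and 2.81% in the WT libraries, or 2.81 ± 0.417% in D395A and 2.85 ± 0.0522% in WT (SD, n = 2 each). The second D395A library was below the first in 81 of 82 members (98.8%, against 49.7% of other tested genes), by a median of 1.24-fold. Between the WT libraries the second was below the first in 65 of 82 members (79.3%, against 51.1% of other tested genes). The median there was -0.06 on the log2 scale. In 36 members the first D395A library was above both WT libraries and the second below both. That last count was not made over other genes. The groups did not overlap in 30 members with D395A below WT (36.6%, against 42.0% of all tested genes) and in 3 with D395A above (3.66%, against 43.1%). Without the first D395A library 3 members rose and 68 fell (median log2 fold change -0.26), so that 86.6% of members were called, against 68.1% of all tested genes, the reverse of the order in the fit on 4 libraries. Without the second, 24 rose and 16 fell (median 0.02), or 48.8% called against 69.3%. Without the first WT library 2 rose and 11 fell, or 15.9% called against 58.8%.

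Other abundant short messages showed the same step between the D395A libraries. Among 91 other genes at 100 CPM or more with at most 1500 exonic bases, the second library was below the first in 88, by a median of -0.26 on the log2 scale. Among all 2753 other genes at 100 CPM or more the median was 0.05, and among the 77 mitochondrial ribosomal protein genes, which encode the ribosome of another compartment, it was -0.09. What separates the 2 libraries was not tested.

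**Figure D3:**
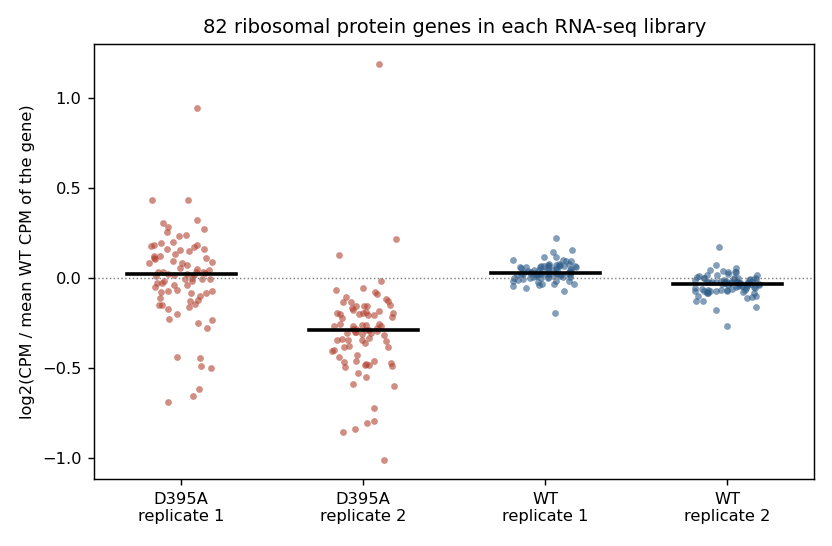
Level of each of the 82 ribosomal protein genes in each RNA-seq library, as log2 of its CPM over its mean WT CPM; points are genes, black bars medians. The points of the second D395A library sit lower than those of the first, while the WT libraries lie close together.

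Rpl3, Rpl8, Rpl10l, Rpl19, Rpl23, Rpl30, Rpl34, Rpl39l and Rps29 fell in the fit on 4 libraries and in every alternative that tested them. The same count was not made over all tested genes, so whether such falls were many or few for members is not known. Rpl23, a protein of the subunit interface that also binds the p53 regulator MDM2, had 279 and 218 CPM in the D395A libraries, against 414 and 376 CPM in the WT libraries (log2 fold change -0.67 ± 0.10 (SE), adjusted p = 2.09e-05). Rpl19, which makes a bridge between the subunits, had 291 and 227 CPM in the D395A libraries, against 397 and 392 CPM in the WT libraries (log2 fold change -0.61 ± 0.09 (SE), adjusted p = 3.76e-05). In both genes the D395A and WT values did not overlap, and the higher D395A library was well below the lower WT library.

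Rpl34 had 26.2 and 22.4 CPM in the D395A libraries, against 46.8 and 33.3 CPM in the WT libraries (log2 fold change -0.72 ± 0.13 (SE), adjusted p = 0.000193), a low level for this family and one with a wide gap between the WT libraries. Rps29, a zinc-binding protein of the small-subunit head, had 149 and 123 CPM in the D395A libraries, against 226 and 179 CPM in the WT libraries (log2 fold change -0.58 ± 0.10 (SE), adjusted p = 0.000135). Rpl8 and Rpl3, which line the peptidyl transferase centre, fell less. Rpl8 had 486 and 385 CPM in the D395A libraries, against 608 and 547 CPM in the WT libraries (log2 fold change -0.41 ± 0.10 (SE), adjusted p = 0.0016). Rpl3 had 527 and 441 CPM in the D395A libraries, against 630.1 and 605 CPM in the WT libraries (log2 fold change -0.35 ± 0.08 (SE), adjusted p = 0.00165). Rpl30 averaged 118 ± 10.9 CPM in D395A and 153 ± 15.9 CPM in WT (SD, n = 2 each; log2 fold change -0.37 ± 0.08 (SE), adjusted p = 0.000792). In each of these 5 genes both D395A values lay below both WT values. Apart from the paralogs Rpl6l, Rpl10l and Rpl39l, given below, the other falls were small. They ran from Rps28 (-0.37 ± 0.10) and Rpl13 (-0.37 ± 0.10) to Rps13 (-0.19 ± 0.08, log2 fold change ± SE). Several of the 24 falls lost the call without the second D395A library.

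**Figure D4:**
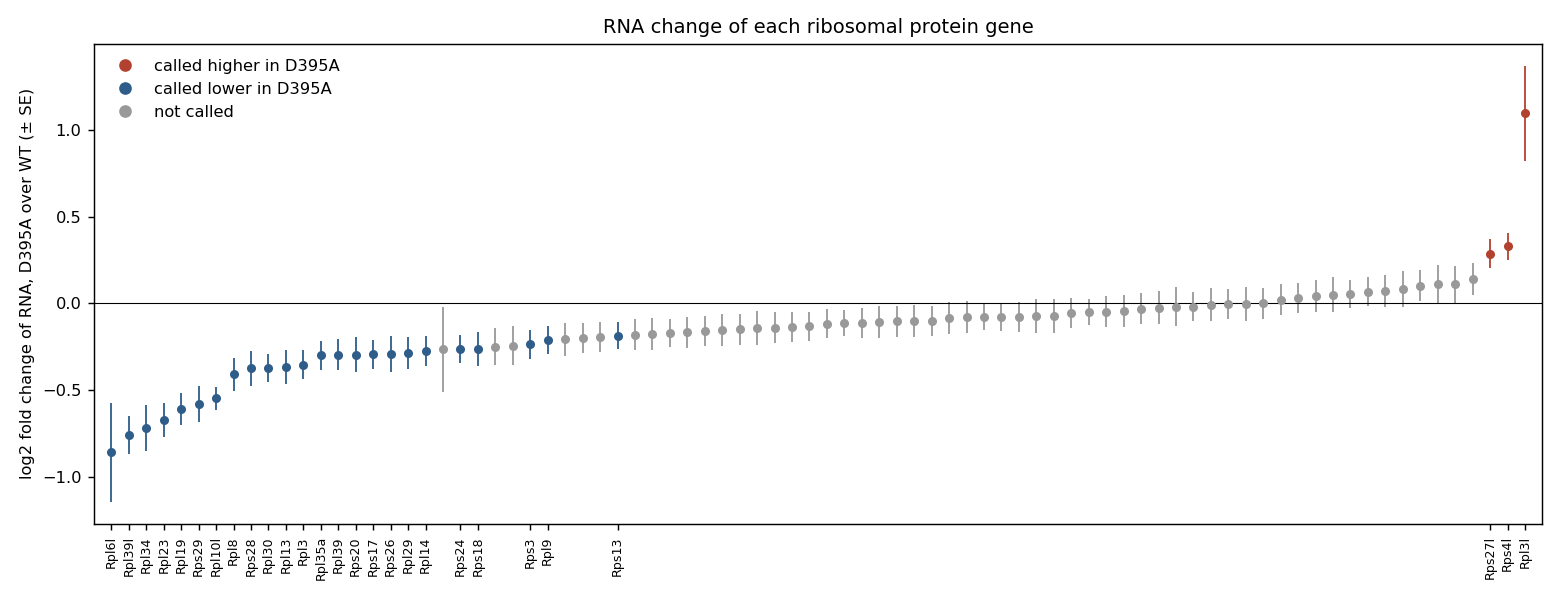
Log2 fold change of RNA, D395A over WT, for each of the 82 ribosomal protein genes in ascending order, with its standard error; blue points were called lower, red points higher, grey points not called (edgeR, adjusted p below 0.05); only called genes are named on the axis. Of the points, 24 are blue and 3 red, and Rpl3l at 1.09 is the one beyond a 2-fold change.

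The stalk and several much-studied members did not pass the test. The stalk genes Rplp0 (-0.04 ± 0.09), Rplp1 (0.08 ± 0.10) and Rplp2 (-0.14 ± 0.09, log2 fold change ± SE) had adjusted p of 0.682, 0.485 and 0.179. Rplp1 had 583 and 439 CPM in the D395A libraries, against 493 and 471 CPM in the WT libraries, so that the D395A libraries bracketed the WT ones. Rpl5 and Rpl11, which carry 5S RNA and bind MDM2, had log2 fold changes of -0.10 ± 0.09 and -0.10 ± 0.09 (SE; adjusted p = 0.303 and 0.335). Rps6, the substrate of S6 kinase, had 545 and 435 CPM in the D395A libraries, against 457 and 494 CPM in the WT libraries (log2 fold change 0.04 ± 0.09 (SE), adjusted p = 0.701). Rpsa, the largest positive value among the members not called, had 1120.2 and 911 CPM in the D395A libraries, against 899 and 944 CPM in the WT libraries (log2 fold change 0.14 ± 0.09 (SE), adjusted p = 0.193). A p that misses the threshold does not show equal levels.

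The paralogs made up the 3 rises and 3 of the 8 largest falls. Rpl3l, which replaces RPL3 in striated muscle, was near the floor with 40 and 68 counts in D395A against 23 and 27 counts in WT; it had 3.04 and 3.61 CPM in the D395A libraries, against 1.72 and 1.45 CPM in the WT libraries (log2 fold change 1.09 ± 0.27 (SE), adjusted p = 0.00244), while its partner Rpl3 fell. Its rise held in each alternative fit, at 0.95 to 1.24 on the log2 scale, and was under 2-fold without the second D395A or the second WT library. Rps4l rose, with 371 and 321 CPM in the D395A libraries, against 286 and 265 CPM in the WT libraries (log2 fold change 0.33 ± 0.08 (SE), adjusted p = 0.00161); its X-linked partner Rps4x had 696 and 567 CPM in the D395A libraries, against 657 and 648 CPM in the WT libraries (log2 fold change -0.05 ± 0.09 (SE), adjusted p = 0.648) and was not called. Rps27l, a target of p53, rose, with 151 and 122 CPM in the D395A libraries, against 111 and 112 CPM in the WT libraries (log2 fold change 0.29 ± 0.08 (SE), adjusted p = 0.00668). Its partner Rps27 had 189 and 149 CPM in the D395A libraries, against 186 and 171 CPM in the WT libraries (log2 fold change -0.08 ± 0.09 (SE), adjusted p = 0.46) and was not called. The rises of Rps4l and Rps27l held with either D395A library left out, but the call was lost for Rps4l without the second WT library (adjusted p = 0.0553) and for Rps27l without the first (0.0749).

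The retrocopies that in mouse serve the testis were lower. Rpl10l, the autosomal stand-in for X-linked Rpl10 in meiotic cells, had 72.0 and 66.7 CPM in the D395A libraries, against 99.8 and 102 CPM in the WT libraries (log2 fold change -0.55 ± 0.07 (SE), adjusted p = 3.78e-06). Rpl10 itself had 614 and 520.0 CPM in the D395A libraries, against 528 and 553 CPM in the WT libraries (log2 fold change 0.07 ± 0.08 (SE), adjusted p = 0.473) and was not called. Rpl10l was also the 1 member whose peak was in the WT list alone. Rpl39l had 12.9 and 11.9 CPM in the D395A libraries, against 19.8 and 21.9 CPM in the WT libraries (log2 fold change -0.76 ± 0.11 (SE), adjusted p = 1.89e-05), and Rpl39 also fell, with 131 and 103 CPM in the D395A libraries, against 147 and 138 CPM in the WT libraries (log2 fold change -0.30 ± 0.09 (SE), adjusted p = 0.00859). Rpl6l had the largest fall, -0.86 ± 0.28 (log2 fold change ± SE, adjusted p = 0.0148), from 25 and 28 counts in D395A against 35 and 63 in WT, and lost the call with DESeq2's Wald test, without the second D395A library and without the second WT library (adjusted p up to 0.209). The sources used here do not say how reads shared between near-identical copies were counted, so values of a paralog and its partner are uncertain. The pseudogene rows of the family, 276 of which 185 had counts, took between 0.0630% and 0.0776% of counts in each library.

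Within the family most shares moved little between genotypes. Each member's share of the summed member counts, which cancels a shift common to all, lay within 0.25 log2 units of its WT share in 69 of 82 genes. The share was higher by more than that in 4 (Rpl3l, Rps4l, Rps27l and Rpsa) and lower in 9 (Rpl6l, Rpl39l, Rpl34, Rpl23, Rpl19, Rps29, Rpl10l, Rpl8 and Rps28). For Rpl23 it was 9.26 and 8.97 per mille in D395A against 13.8 and 12.9 per mille in WT, and for Rpsa, the small-subunit protein also known as the laminin receptor, 37.2 and 37.5 per mille in D395A against 29.9 and 32.6 per mille in WT. On this scale the D395A libraries lay close to each other. Both D395A shares were above both WT shares in 29 members and below both in 33, so small moves were common. No such count exists over all tested genes, since the scale is defined for the members only. It was a description, since a share depends on every other member.

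Levels per kilobase of exon spanned a wide range. The highest means over the 4 libraries were those of Rplp1 (994 CPM per kb), Rps15 (643), Rpl8 (588), Rpl4 (561) and Rpl23a (525). The lowest were those of Rpl3l (1.5 CPM per kb), Rpl6l (2.69), Rpl24 (3.02), Rpl34 (12.2) and Rpl13a (19.0). Rplp1 had 1168 and 879 CPM per kb in the D395A libraries, against 988 and 943 CPM per kb in the WT libraries. Rpl24 and Rpl13a encode ordinary core proteins, and 47.0% and 35.4% of their exonic bases are shared with other rows on the same strand (Gm28037 for Rpl24, Gm45713 with small RNAs for Rpl13a), so their low counts are uncertain. Exons of 16 members are overlapped on the opposite strand, most in Rpl35 (66.2%) and Rpl23a (59.7%). Whether reads were counted by strand is not stated, and those 16 had 0 rises and 2 falls (median log2 fold change -0.08), against 3 rises and 22 falls in the other 66 (median -0.14).

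Members with and without peaks were also set side by side by their RNA change. The 67 members with a D395A peak had a median log2 fold change in RNA of -0.11, with 2 rises and 18 falls. The 15 without one had -0.17, with 1 rise and 6 falls. The 9 with a WT peak had -0.20, with 1 rise and 3 falls, against -0.11 in the 73 without. No test of these groups was made.

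The falls of Rpl23 and Rpl19 stood in a stretch of chromosome 11 where most genes were lower. The genes start 249 kb apart. Of 39 other tested genes within 500 kb of either, 30 fell, 6 rose and 3 were not called, with a median log2 fold change of -0.84. On the rest of the chromosome 34.8% of 1309 genes fell (median 0.03). Gm27326 and Snora21, both among the 30, start inside the body of Rpl23 and are not independent neighbours. Lasp1, next to Rpl23, had 136 and 155 CPM in the D395A libraries, against 578 and 539 CPM in the WT libraries (log2 fold change -1.93 ± 0.08 (SE), adjusted p = 3.26e-11). Cacnb1, between the genes, had 12.6 and 11.3 CPM in the D395A libraries, against 40.9 and 38.1 CPM in the WT libraries (log2 fold change -1.73 ± 0.09 (SE), adjusted p = 8.3e-10). Psmb3, a proteasome subunit on the other side of Rpl23, had 135 and 119.5 CPM in the D395A libraries, against 248 and 250.1 CPM in the WT libraries (log2 fold change -0.97 ± 0.07 (SE), adjusted p = 1.11e-08). The stretch and its width were chosen after the values were seen, as were these genes. Across 62 members with at least 10 tested genes within 500 kb, the member's log2 fold change and the median of its neighbours had Pearson's r = 0.33 and Spearman's rho = 0.24, given as a description since the points share libraries. The neighbours of Rpl8 had a median of 0.00 and those of Rps29 one of -0.13. Rpl13 lies on chromosome 8, where 563 genes at 10 CPM or more had a median of -0.42.

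**Figure D5:**
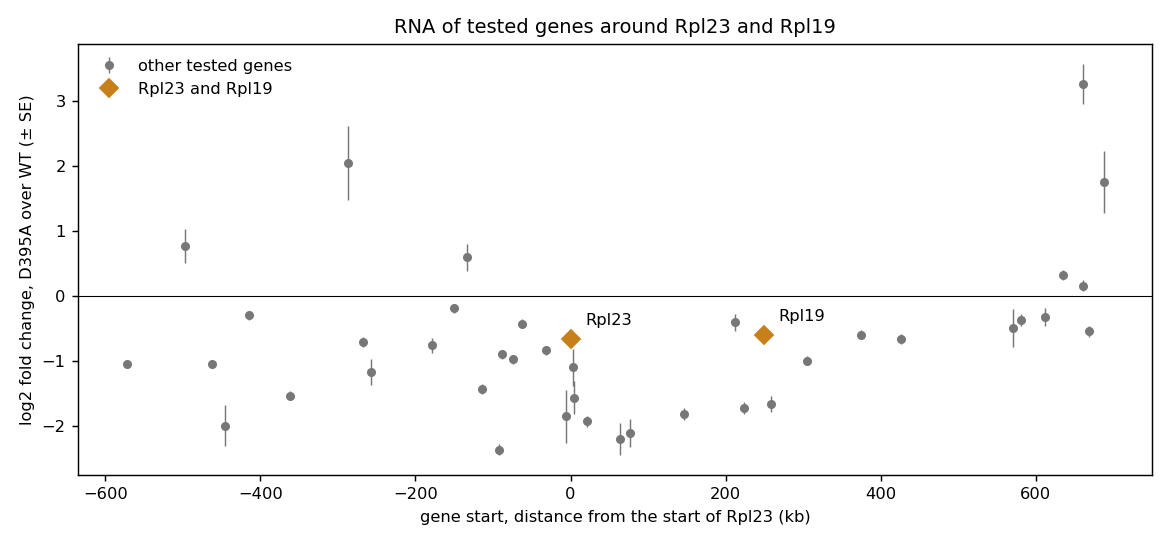
Log2 fold change of RNA, D395A over WT, with its standard error, for tested genes around Rpl23 and Rpl19, by the distance of the gene's start from that of Rpl23 in kb. Rpl23 and Rpl19 (orange diamonds) lie among 39 other genes (grey), 30 of which fell, and both fell less than the neighbours' median of -0.84.

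Genes that work with ribosomal proteins gave the frame for these counts. Called shares were 42.9% of the ribosomal protein genes outside the symbol rule and 42.9% of the elongation factors and other TOP messages. In the mTOR, LARP1 and 4E-BP list 37.5% were called. Each of these shares was below the 71.1% of all tested genes. Of 7 ribosomal protein genes outside the symbol rule, none rose and 3 fell; among them, Rpl22l1, the paralog of Rpl22, had 42.7 and 34.4 CPM in the D395A libraries, against 81.7 and 85.7 CPM in the WT libraries (log2 fold change -1.13 ± 0.09 (SE), adjusted p = 3.86e-08), and Rpl7l1 (-0.39 ± 0.06, log2 fold change ± SE) fell too. Rpl22 had a log2 fold change of -0.05 ± 0.07 (SE; adjusted p = 0.566). Of 14 elongation factors and other TOP messages, 2 rose (Hnrnpa1 and Nap1l1) and 4 fell, among them Eif4b, Naca and Eif3f. Eef1a1, which delivers aminoacyl-tRNA, had 4093 and 3258 CPM in the D395A libraries, against 3302 and 3332 CPM in the WT libraries (log2 fold change 0.15 ± 0.11 (SE), adjusted p = 0.236), again with the second D395A library below the first. Of 16 genes of mTOR, LARP1 and 4E-BP control 3 rose and 3 fell; Larp1 rose, with 621 and 688 CPM in the D395A libraries, against 506 and 469 CPM in the WT libraries (log2 fold change 0.43 ± 0.08 (SE), adjusted p = 0.000161), and Eif4ebp2 (-0.59 ± 0.06) fell.

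Among the genes that make and assemble ribosomes most were called, against the 71.1% of all tested genes given above. Of 42 ribosome assembly and nucleolar factors 10 rose and 24 fell (81.0% called, median log2 fold change -0.24). Grwd1 (0.85 ± 0.06), Nop2 (0.83 ± 0.06) and Bysl (0.71 ± 0.06) rose, and the export adaptor Nmd3 (-0.93 ± 0.06), the Rpl5 and Rpl11 chaperone Heatr3 (-0.84 ± 0.06) and the box C/D protein Nop58 (-0.80 ± 0.07, log2 fold change ± SE) fell. Of 15 genes of RNA polymerase I, which transcribes ribosomal DNA, 4 rose, among them Polr1b (0.86 ± 0.06), and 8 fell, among them Rrn3 (-0.66 ± 0.06, log2 fold change ± SE). Of 77 mitochondrial ribosomal protein genes, 34 rose and 25 fell (76.6% called, median 0.08); Mrpl43 (1.41 ± 0.08) rose and Mrpl45 (-1.05 ± 0.06, log2 fold change ± SE) fell. Mrpl45 lies in the stretch around Rpl23.

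Peaks were counted in the same lists. A D395A peak lay in 81.0% of the assembly factors, 85.7% of the TOP messages and 46.8% of the mitochondrial ribosomal protein genes, beside 81.7% of the members and 52.6% of all tested genes. A WT peak lay in 57.1% of the assembly factors, 42.9% of the TOP messages and 71.4% of the mitochondrial genes, beside 11.0% of the members and 66.5% of all tested genes. In the mTOR list the shares were 81.2% for D395A and 93.8% for WT, among RNA polymerase I genes 66.7% and 80.0%, and among ribosomal protein genes outside the symbol rule 71.4% and 28.6%. The D395A counts are at the list's own threshold, and no test of the difference between lists was made.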

How the data were processed

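RNA-seq counts per gene in 2 D395A and 2 WT libraries (12743677 to 19246342 counts each) and 2 m6A peak lists were used. The authors deposited the counts as raw whole-number counts per gene; the submitters' processing notes name HISAT2 2.1.0, Bowtie2 2.3.4.1, SAMtools 1.7, featureCounts 1.6.3, edgeR 3.22.5, MACS2 2.1.1 and the builds mm10 and hg38, without roles. The column headed Da95A_1 was taken as the first D395A library, since it matches no other sample's label. The peak lists hold, as deposited in MACS2's narrowPeak layout, a score, a fold enrichment (a ratio to input) and −log10 p-values and −log10 q-values per peak; from the values, the WT list was cut on q and the D395A list on p. Lists for human HEK293T cells and the chromatin data were not used here.

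Counts were filtered with filterByExpr, scaled by TMM and tested with edgeR 4.0.16's quasi-likelihood test in R 4.3.3 over all 17778 genes that passed, D395A over WT, without a replicate term; CPM are TMM-scaled. Called means a Benjamini-Hochberg adjusted p below 0.05. On simulated counts for 17778 genes with the depths of these libraries, the test recovered 60.0%, 84.0%, 96.0% and 96.0% of genes changed 1.5-, 2-, 4- and 8-fold. Each gene was simulated independently with 1 common dispersion (0.0030), without the step between the D395A libraries that the members share. These rates therefore cannot be carried over to the members. Peaks were assigned with bedtools 2.31.1 to gene bodies from the count table, on either strand, with at least 1 base of overlap; interval errors cannot be given without immunoprecipitate depth. Deviations of same-numbered libraries were not correlated across genes (r = 0.04), and the labels do not state pairs, so the numbers were not taken as pairs. Promoter windows came from RefSeq (GRCm38.p6). Alternatives were DESeq2 1.42.0, limma-voom 3.58.1, other scalings and filters, a replicate block, each library left out, and other peak thresholds. Named genes were Mettl3, the 8 called members per direction with the largest fold change, members with exonic peaks (66 in D395A, of which the 6 of highest enrichment), the highest and lowest 5 per kb, paralogs with their partners, the stalk, and up to 3 genes per direction of each companion list. A few genes are not reported here by name. Other named genes were chosen after their values were seen. The members, lists and rules were chosen with earlier results of these data known.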

Additional observations from a re-analysis of the deposited data

How the results depend on the processing

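Across 15662 genes the deviations of same-numbered libraries were not correlated (r = 0.04). Such an r can miss a step shared by the members. Their second library was below the first in 81 of 82 genes in D395A and in 65 of 82 in WT. Whether the numbers pair the libraries is thus not settled. A fit with the replicate block called 35 members (42.7%, against 72.5% of all tested genes). Without the block 27 were called (32.9%, against 71.1%). Scaling by library totals alone gave 17 (20.7%, against 70.0%). With 1 library left out the count ran from 13 (without the first WT library) to 71 (without the first D395A library), and the number at least 2-fold different ran from 0 to 2, against 1. In the remaining alternatives the count of called members lay between 19 (DESeq2's Wald test) and 35 (no filter on low counts). With the Wald test 23.2% of members were called, against 58.2% of all tested genes. Without the filter 42.7% were called, against 44.6% of 31364 genes, so in that fit the shares were close. With pseudogene rows added, the WT share of counts was 2.91% against 2.85%. With 1 library left out, the D395A share ran from 2.52% to 3.11% and the WT share from 2.81% to 2.88%. The cause of these movements was not tested. Across the 27 called genes and the alternatives, 323 values kept the call, 53 lost it and 0 changed sign; Rpl6l ranged from -1.02 to -0.64, Rpl23 from -0.82 to -0.50 and Rpl3l from 0.95 to 1.24. Under alternatives chosen after seeing the data, members with a peak numbered 32 in the D395A list (26.8% of all tested genes had one) and 4 in the WT list (64.0%) at a fold enrichment of at least 3, 54 in the D395A list (27.3%) and 3 in the WT list (54.9%) with the summit in an exon, and 1 in the WT list among its 5275 top peaks (22.7%). With 2 libraries per genotype and 1 peak list each, small changes and any difference between lists cannot be resolved further.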
